A study of Mus musculus with 8 samples.

Results

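The genes described here were 10 members of the fibroblast growth factor (FGF) pathway, out of 56923 genes counted: the ligand *Fgf1*, the receptors *Fgfr1*, *Fgfr2* and *Fgfr3*, the feedback inhibitors *Spry1*, *Spry2*, *Spry4* and *Dusp6*, and the ETS transcription factors *Etv4* and *Etv5*. Of these, 9 were taken by name, each from the Ensembl identifier that carries that symbol. The list of names was drawn up with earlier results of these data known. *Fgf1* was chosen by its measured CPM, which rose in organoids in these same libraries, so its values are given as a description, with no test. All 10 passed the filter on low counts (1 CPM or more, where CPM is counts scaled to an equal library total, in at least 3 of the 8 libraries), as did 14504 genes in all. *Fgfr3* reached 1 CPM in only 4 libraries, 2 of them D7 organoids, the group in which it was highest, and would not have passed without that group, so it too is described without a test.

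Bulk RNA sequencing covered thymic epithelial cells (TECs) in 4 groups of 2 libraries each, to set organoids and conventional monolayers against cells taken straight from the thymus. All cells came from thymi of wild-type C57BL/6J embryos at E16.5, which were digested with TrypLE and DNase before EpCAM-positive cells were sorted. *In vivo* TECs were lysed without culture. 2D-cultured TECs were grown on laminin-coated plates and lysed at confluence after 3 days. D3 and D7 organoids grew from sorted TECs in Matrigel for 3 or 7 days. 2D and organoid cultures received the same TEC medium, which contained the recombinant ligand FGF7. Organoids also received the ROCK inhibitor thiazovivin at the start, and the paper does not state whether 2D cultures did. FGF7 in the medium cannot be told apart from culture itself in any comparison with *in vivo* TECs. Comparisons among the cultures had FGF7 on both sides.

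FGFs signal through receptor tyrosine kinases that activate RAS and the kinases MEK and ERK. ERK activity raises transcription of *Etv4* and *Etv5* and of a set of inhibitors that act back on the pathway, namely the Sprouty proteins, which act near the receptor and RAS, and DUSP6, a phosphatase that removes the activating phosphates from ERK. In the thymus, mesenchymal cells supply FGF7 and FGF10, which bind the epithelial splice form of FGFR2 and are needed for the growth of the epithelium, whereas FGF1 binds all FGF receptors.

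Depth was similar across the libraries, with total counts between 5084715 and 7612532, and 3 counts, taken as the floor of detection, corresponded to 0.371 to 0.592 CPM. All 8 markers of TECs on the list used had counts in every library, but their levels differed between the groups, with sums of 3690 to 4010 CPM in *in vivo* TECs, 7900 to 8580 CPM in 2D, 1660 to 1830 CPM in D3 organoids and 1770 to 1860 CPM in D7 organoids. Against *in vivo* TECs, 6 of the 8 were higher and 2 lower in 2D, 2 higher and 4 lower in D3 organoids, and 1 higher and 5 lower in D7 organoids. Of all genes tested, 41.6% (2D), 28.2% (D3) and 34.8% (D7) were called in these comparisons. *Foxn1*, the transcription factor gene that defines TECs, averaged 248 CPM in *in vivo* TECs, 6.67 CPM in 2D, 9.20 CPM in D3 organoids and 72.7 CPM in D7 organoids. *Psmb11*, a cortical marker, had 3 counts in each 2D library and 3 and 7 in the D3 organoid libraries, at or near the floor. It averaged 537 CPM in *in vivo* TECs and 109 CPM in D7 organoids. These were the 2 markers lower in 2D, whereas the other 6 were higher there, such as *Epcam* (197 CPM *in vivo* and 767 CPM in 2D). Blood cell markers, which include *Rag1* and *Ptprc*, summed to 265 and 573 CPM in *in vivo* TECs and to between 2.36 and 9.07 CPM in the cultures. Mesenchymal markers summed to between 22.2 and 81.0 CPM, highest in D7 organoids, and endothelial markers to at most 5.19 CPM. Much of the D7 sum was *Dcn*, which averaged 52.2 CPM there and 20.6 CPM in *in vivo* TECs. *Lum* (11.2 and 1.89 CPM) also had a higher mean in D7 organoids than in *in vivo* TECs. *Col1a1* (1.33 and 6.19 CPM) and *Col3a1* (3.21 and 4.54 CPM) had lower means in D7 organoids than in *in vivo* TECs. Of the 6 mesenchymal markers tested in this comparison, 2 were called higher and 1 lower. The part of these other cells in the differences from *in vivo* TECs was not tested. In bulk RNA, fewer cells that express a gene and less RNA of it per cell cannot be told apart.

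*Fgf1*, which encodes a secreted FGF without a classical signal peptide, stood at 2.60 and 1.82 CPM in *in vivo* TECs, at 32.5 and 30.0 CPM in 2D-cultured TECs, at 112 and 116 CPM in D3 organoids and at 172 and 189 CPM in D7 organoids. The 4 groups did not overlap, and the level climbed at each step from *in vivo* to 2D, D3 and D7. The means were 2.21 ± 0.545 CPM (SD, n = 2), 31.2 ± 1.76 CPM (SD, n = 2), 114 ± 2.74 CPM (SD, n = 2) and 181 ± 11.8 CPM (SD, n = 2). D7 organoids thus held 81.8 times the level of *in vivo* TECs and 5.79 times that of 2D-cultured TECs, while the 2D-cultured TECs already held 14.1 times the *in vivo* level. The *in vivo* libraries had 15 and 13 *Fgf1* counts, so the size of the folds over that group rests on few reads. The annotated transcript of *Fgf1* lies on chromosome 18, between positions 38971717 and 39052074 of the minus strand (GRCm39), and the last 500 bases of the 10 genes shared no 50-base word with another gene.

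**Figure D1:**
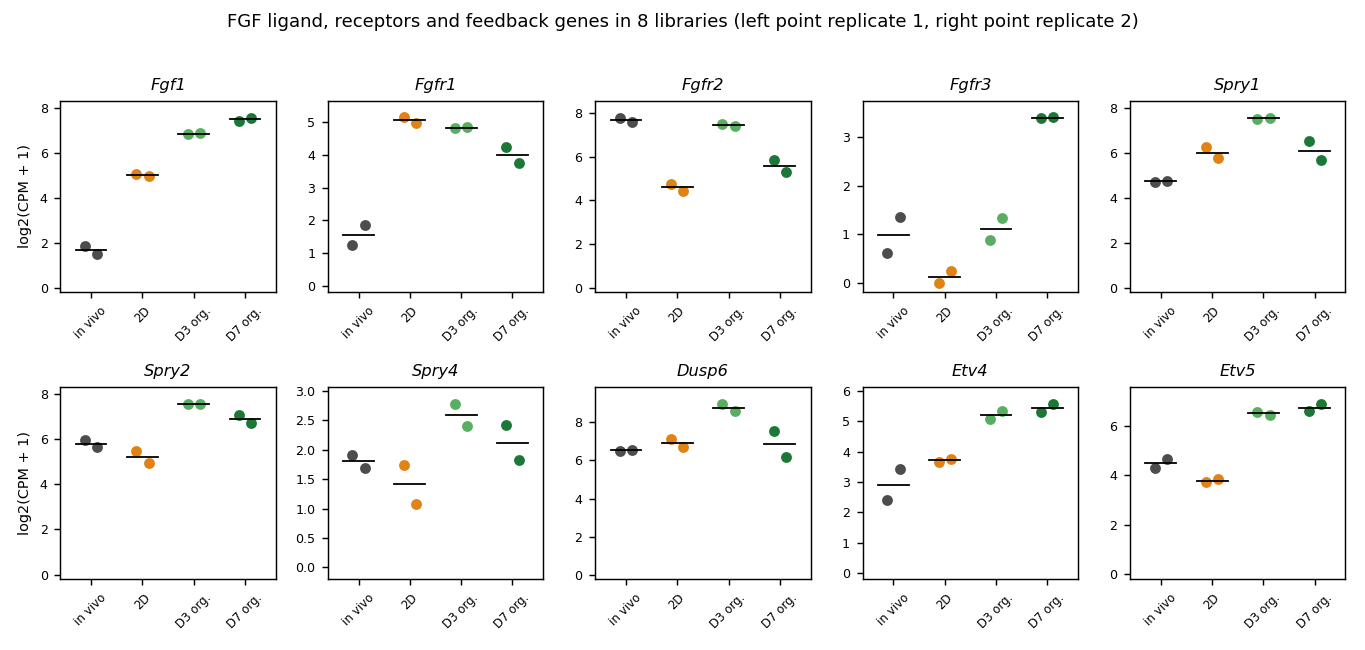
Levels of the 10 genes as log2(CPM + 1) on the y axis, with the 4 groups on the x axis, 2 points per group for the 2 libraries and a line at their mean. *Fgf1* climbs across the groups, *Fgfr2* is lowest in 2D, *Fgfr3* stands out in D7 organoids, and *Spry1*, *Spry2* and *Dusp6* peak in D3 organoids, whereas *Etv4* and *Etv5* stay high in D7 organoids.

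Most other FGF ligand genes had few counts or none. Of 21 other FGF genes on the list, 8 passed the filter, 5 had no count in any library, and none of the 13 that did not pass exceeded 6 counts in a library. *Fgf7*, the ligand added to the medium, had at most 2 counts in a library and *Fgf10* at most 3, both at or under the floor. Among the ligands that passed, *Fgf9*, a secreted FGF, was at 8.13 and 8.0 CPM in *in vivo* TECs and at 30.4 and 26.5 CPM in D3 organoids (log2 fold change 1.81 ± 0.28 SE, adjusted p = 0.000104, edgeR quasi-likelihood test with Benjamini-Hochberg adjustment, which apply to every adjusted p given). It fell again to 16.5 and 11.4 CPM in D7 organoids (log2 fold change -1.01, adjusted p = 0.0135), a call that was lost without D3 replicate 1 (adjusted p = 0.0996) or D7 replicate 2 (0.179). *Fgf12* and *Fgf14* encode intracellular FGF homologues that do not act through FGF receptors. *Fgf12* was at 3.27 and 1.67 CPM in 2D-cultured TECs and 42.2 and 39.5 CPM in D3 organoids (log2 fold change 4.03, adjusted p = 5.44e-08). *Fgf14* went the other way from *Fgf1*, from 251 and 240.3 CPM in *in vivo* TECs to 1.09 and 0 CPM in 2D-cultured TECs and 16.0 and 11.8 CPM in D7 organoids (log2 fold change -8.76 ± 0.46 SE in 2D and -4.13 ± 0.30 SE in D7 organoids over *in vivo* TECs, adjusted p = 1.36e-10 and 1.55e-08). Of the 8 FGF genes tested, 2 were higher and 3 lower in each of the 3 comparisons with *in vivo* TECs. These 8 include *Fgf12* and *Fgf14*, so the count does not cover receptor ligands alone. They also include *Fgf16* and *Fgf21*, which reached 1 CPM only in *in vivo* and 2D libraries. The part of *Fgf16* and *Fgf21* in the count is a description and not a test. In the same comparisons, 41.6% (2D), 28.2% (D3) and 34.8% (D7) of all genes were called.

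The receptors differed from one another in the group in which they were highest. Their canonical transcripts in GRCm39 lie at chr8:26008745-26066824 (plus strand) for *Fgfr1*, chr7:129763471-129868272 (minus strand) for *Fgfr2* and chr5:33879067-33894412 (plus strand) for *Fgfr3*, and each has 18 exons. *Fgfr2*, the receptor of FGF7 and FGF10 in epithelium, was the most abundant of them in *in vivo* TECs and in organoids at both times by CPM, which in 3′ end sequencing counts transcripts without a length term. It was at 219 and 193 CPM in *in vivo* TECs, 26.1 and 20.6 CPM in 2D-cultured TECs, 177 and 168 CPM in D3 organoids and 57.2 and 38.4 CPM in D7 organoids. The 2D libraries lay below all others and the D3 organoids below the *in vivo* TECs by less than the test could call. *Fgfr2* was 8.82 times lower in 2D-cultured than in *in vivo* TECs (log2 fold change -3.14 ± 0.21 SE, adjusted p = 2.41e-09) and 7.40 times higher in D3 organoids than in 2D (adjusted p = 9.48e-09), and D3 organoids and *in vivo* TECs differed by -0.26 ± 0.18 on the log2 scale (adjusted p = 0.332). By day 7 it had fallen 3.61-fold from day 3 (adjusted p = 7.87e-06), to a level between those of 2D and *in vivo* TECs that differed from both (adjusted p = 0.000593 and 3.15e-07). In this order of *in vivo*, D3, D7 and 2D, the first pair alone was not separated by the test.

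*Fgfr1*, an FGF receptor expressed in many tissues, had the reverse order in part. It was near the floor in *in vivo* TECs, with 8 and 19 counts (1.38 and 2.67 CPM), and stood at 34.7 and 30.7 CPM in 2D-cultured TECs, 27.2 and 28.0 CPM in D3 organoids and 17.9 and 12.4 CPM in D7 organoids. All 6 cultured libraries lay above both *in vivo* libraries. Log2 fold changes over *in vivo* TECs were 3.96 ± 0.34 in 2D, 3.72 ± 0.34 in D3 organoids and 2.87 ± 0.35 in D7 organoids (SE, adjusted p = 5.46e-08, 2.30e-07 and 6.57e-06). The 8 mesenchymal markers, of which 6 passed the filter, summed to 46.4 to 47.0 CPM in *in vivo* TECs, 33.3 to 40.3 CPM in 2D, 22.2 to 26.3 CPM in D3 organoids and 73.4 to 81.0 CPM in D7 organoids. Their median log2 fold change over *in vivo* TECs was 0.60 in 2D (none higher, 2 lower), -0.92 in D3 organoids (none higher, 3 lower) and 0.49 in D7 organoids (2 higher, 1 lower). The share of all genes called was 41.6% in 2D, 28.2% in D3 organoids and 34.8% in D7 organoids. Single markers went both ways, with *Dcn* at a mean of 20.6 CPM in *in vivo* TECs and 3.04 CPM in 2D, and *Col1a1* at 6.19 CPM and 11.3 CPM. Their part in the level of *Fgfr1* was not tested. D3 organoids and 2D-cultured TECs were not separated (-0.24 ± 0.26 on the log2 scale, adjusted p = 0.494). The fall from D3 to D7 (-0.85, adjusted p = 0.0344) was lost when D3 replicate 1, D3 replicate 2 or D7 replicate 2 was left out (adjusted p from 0.0992 to 0.310), and the lower level in D7 organoids than in 2D (-1.09, adjusted p = 0.00348) was lost without D7 replicate 2 (0.0562).

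*Fgfr3* was the one receptor highest in D7 organoids, and since it passed the filter only through that group its values are a description, with no test. Its levels were 0.519 and 1.54 CPM in *in vivo* TECs, 0.844 and 1.53 CPM in D3 organoids and 9.53 and 9.66 CPM in D7 organoids, and the 2D libraries had 0 and 1 counts. Both D7 libraries lay above the other 6, and the counts outside D7 were 11 or fewer per library. The mean CPM of D7 organoids was 8.07 times that of D3 organoids and 9.30 times that of *in vivo* TECs. D7 organoids had 126 counts, D3 organoids 16 and *in vivo* TECs 14, against the single count in 2D. The ratios to 2D were 105, 13.3 and 11.8 in this order. Each ratio rests on that single count, so its size is uncertain.

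*Fgfr4* had no count in any library, which allows at most the floor given above. *Fgfrl1*, a receptor-like protein without a kinase domain, was at 11.1 and 11.4 CPM in *in vivo* TECs, 30.3 and 28.7 CPM in 2D-cultured TECs, 24.8 and 24.3 CPM in D3 organoids and 20.7 and 22.9 CPM in D7 organoids. It was higher in all 3 cultured groups than in *in vivo* TECs (log2 fold changes 1.39, 1.12 and 0.95, adjusted p = 0.000151, 0.00166 and 0.00534), and no test separated the cultured groups from one another. Reads came from the 3′ ends of transcripts, so the splice forms of *Fgfr1*, *Fgfr2* and *Fgfr3* that bind different ligands were not distinguished.

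**Figure D2:**
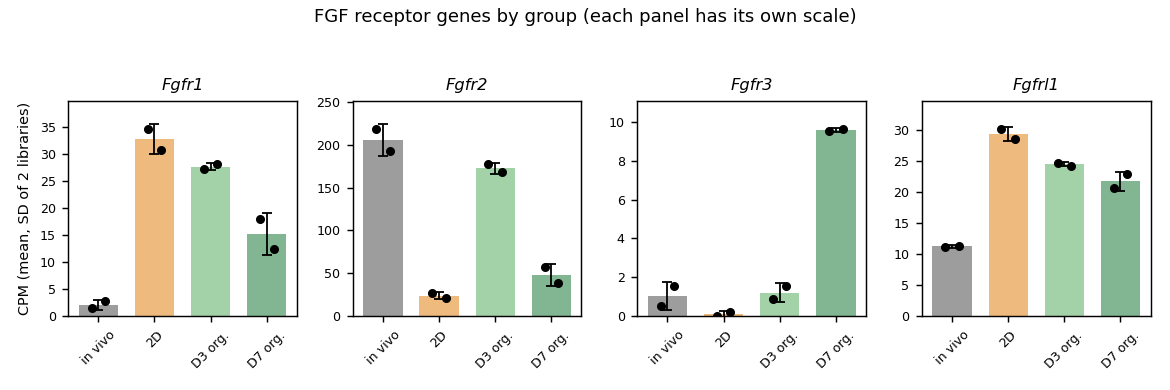
CPM of 4 receptor genes in the 4 groups, each panel with its own scale from 0. Bars are means, error bars the SD of 2 libraries and points the libraries, and *Fgfr2* alone is high in both *in vivo* TECs and D3 organoids.

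*Etv4* and *Etv5* encode ETS-family transcription factors whose genes are transcribed in response to FGF and ERK signalling. *Etv5* was at 18.5 and 24.7 CPM in *in vivo* TECs, 12.3 and 13.3 CPM in 2D-cultured TECs, 94.7 and 86.2 CPM in D3 organoids and 96.7 and 117 CPM in D7 organoids. Every organoid library lay above every other library. The log2 fold change over 2D-cultured TECs was 2.81 ± 0.22 in D3 and 3.06 ± 0.22 in D7 organoids (SE, adjusted p = 1.84e-08 and 5.38e-09), and over *in vivo* TECs 2.05 and 2.30 (adjusted p = 5.08e-07 and 1.58e-07). In 2D it was lower than in *in vivo* TECs (-0.76, adjusted p = 0.0108), a call lost without *in vivo* replicate 2 (adjusted p = 0.124), without 2D replicate 1 (0.0740) or in a fit of those 4 libraries alone (0.0568).

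*Etv4* was lower in level, at 4.33 and 9.68 CPM in *in vivo* TECs, 11.6 and 12.6 CPM in 2D-cultured TECs, 32.6 and 39.9 CPM in D3 organoids and 39.1 and 46.5 CPM in D7 organoids. The organoid libraries again lay above all others. Its log2 fold change over 2D was 1.58 ± 0.29 in D3 and 1.82 ± 0.29 in D7 organoids (SE, adjusted p = 0.000363 and 8.05e-05), and over *in vivo* TECs 2.34 and 2.58 (adjusted p = 1.43e-05 and 4.84e-06). Neither gene was separated between D7 and D3 organoids, with 0.24 ± 0.27 for *Etv4* and 0.24 ± 0.19 for *Etv5* on the log2 scale (adjusted p = 0.589 and 0.396). The difference of *Etv4* between 2D and *in vivo* TECs (0.76, adjusted p = 0.0703) missed the threshold but passed it with no filter on low counts (0.0310) or without *in vivo* replicate 2 (1.49, 0.00376). The relative *Etv1*, a gene named after its values were seen, was at 18.2 and 15.7 CPM in *in vivo* TECs, 5.44 and 3.15 CPM in 2D-cultured TECs, 139 and 119 CPM in D3 organoids and 121 and 99.8 CPM in D7 organoids. It was lower in 2D than in *in vivo* TECs (log2 fold change -1.97, adjusted p = 1.72e-05) and 30.0 times higher in D3 organoids than in 2D (adjusted p = 2.36e-10).

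Because *Etv4* and *Etv5* moved together across the organoid comparisons, their promoters are shown beside those of *Dusp6* and *Spry2*, feedback genes whose level had fallen by D7. Each sequence is the 250 bases upstream of the start of the Ensembl canonical transcript in GRCm39, written 5′ to 3′ on the strand of the gene. Capitals mark TGAATGAA and TGAATGGA, which are among the octamers recognised by Capicua, a repressor that ERK signalling inactivates. Other forms of the Capicua site were not searched. The octamers were searched on both strands after the sequences had been read, so their presence is a description and not a test.
Etv4: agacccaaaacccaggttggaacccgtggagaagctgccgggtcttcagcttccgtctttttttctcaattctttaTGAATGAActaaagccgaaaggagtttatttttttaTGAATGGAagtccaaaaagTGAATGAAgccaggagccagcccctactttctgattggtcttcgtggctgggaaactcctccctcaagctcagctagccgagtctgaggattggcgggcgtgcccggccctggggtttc
Etv5: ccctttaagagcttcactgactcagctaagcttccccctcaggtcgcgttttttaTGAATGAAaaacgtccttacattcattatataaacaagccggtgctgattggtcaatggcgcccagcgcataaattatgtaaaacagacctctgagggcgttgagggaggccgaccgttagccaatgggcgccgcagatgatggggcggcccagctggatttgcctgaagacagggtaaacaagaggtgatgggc
Dusp6: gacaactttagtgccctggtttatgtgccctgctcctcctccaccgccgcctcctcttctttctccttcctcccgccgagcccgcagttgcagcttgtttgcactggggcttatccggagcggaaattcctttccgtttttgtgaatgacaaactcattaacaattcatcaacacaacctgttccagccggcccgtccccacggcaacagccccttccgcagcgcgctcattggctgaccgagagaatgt
Spry2: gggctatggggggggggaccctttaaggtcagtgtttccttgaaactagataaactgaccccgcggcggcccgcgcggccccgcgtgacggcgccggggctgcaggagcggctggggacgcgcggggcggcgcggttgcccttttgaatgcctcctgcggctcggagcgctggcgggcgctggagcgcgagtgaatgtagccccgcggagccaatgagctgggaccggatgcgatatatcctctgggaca
The *Etv4* window (chr11:101676198-101676447, minus strand) held 3 octamers, which began 174, 138 and 119 bases before the transcript start, and the *Etv5* window (chr16:22258484-22258733, minus strand) held 1, at 195 bases. The *Dusp6* window (chr10:99098818-99099067, plus strand) and the *Spry2* window (chr14:106134793-106135042, minus strand) held neither octamer. Of the other members, *Spry4* had 1 match, TGAATGGA on the opposite strand, and the windows of *Fgf1*, *Fgfr1*, *Fgfr2*, *Fgfr3* and *Spry1* had none, nor had that of *Etv1*. Either octamer was found in 1.74% of the 12556 windows of the same length at protein-coding genes that passed the filter. The short ETS words CCGGAA and AGGAAG, searched on both strands, were each far more common, and 1 or the other was in 40.8% of the windows, *Dusp6*, *Fgfr2* and *Spry4* among them.

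*Spry1*, *Spry2* and *Dusp6* were highest in D3 organoids. *Spry1* was at 25.3 and 26.5 CPM in *in vivo* TECs, 75.7 and 53.9 CPM in 2D-cultured TECs, 183 and 191 CPM in D3 organoids and 92.3 and 50.1 CPM in D7 organoids. The D3 libraries lay above the other 6, whereas the ranges of 2D-cultured TECs and D7 organoids overlapped. *Spry1* was 7.23 times higher in D3 organoids than in *in vivo* TECs and 2.89 times higher than in 2D (log2 fold changes 2.85 ± 0.25 and 1.53 ± 0.23 SE, adjusted p = 1.40e-07 and 5.80e-05). It fell from D3 to D7 by 1.38 on the log2 scale (adjusted p = 0.000564). D7 organoids and 2D-cultured TECs were not separated (0.15 ± 0.23, adjusted p = 0.642), although both were above *in vivo* TECs (adjusted p = 0.000188 and 0.000377).

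*Spry2* was at 60.7 and 48.8 CPM in *in vivo* TECs, 42.6 and 29.8 CPM in 2D-cultured TECs, 185 and 185 CPM in D3 organoids and 133 and 104 CPM in D7 organoids. All 4 organoid libraries lay above the other 4. Over 2D-cultured TECs the log2 fold change was 2.35 ± 0.20 in D3 and 1.71 ± 0.20 in D7 organoids (SE, adjusted p = 8.27e-08 and 2.89e-06), and over *in vivo* TECs 1.75 and 1.11 (adjusted p = 2.61e-06 and 0.000282). The smaller differences were less stable. *Spry2* was lower in 2D than in *in vivo* TECs (-0.60, adjusted p = 0.0255), which was lost without *in vivo* replicate 1 (0.173) or 2D replicate 2 (0.253), and lower in D7 than in D3 organoids (-0.64, adjusted p = 0.0240), which was lost without D3 replicate 1, D3 replicate 2 or D7 replicate 2 (0.0604 to 0.249).

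*Spry4* was the least abundant Sprouty gene, with 6 to 35 counts per library. It was at 2.77 and 2.25 CPM in *in vivo* TECs, 2.36 and 1.11 CPM in 2D-cultured TECs, 5.91 and 4.33 CPM in D3 organoids and 4.33 and 2.56 CPM in D7 organoids. The D3 libraries were above those of *in vivo* TECs and of 2D, but none of its 6 comparisons passed the threshold. The largest log2 fold change, D3 organoids over 2D, was 1.54 ± 0.68 (SE, adjusted p = 0.0850), which passed the threshold only when libraries were scaled by total count alone (1.79, adjusted p = 0.0477).

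*Dusp6* was the most abundant of the feedback inhibitors among the 10 genes. It was at 89.3 and 90.8 CPM in *in vivo* TECs, 137 and 100.3 CPM in 2D-cultured TECs, 482 and 377 CPM in D3 organoids and 186 and 71.6 CPM in D7 organoids. The D3 libraries lay above the other 6, and the 2 D7 libraries differed from each other more than the libraries of any other group. D3 organoids were 4.77 times above *in vivo* TECs and 3.63 times above 2D (log2 fold changes 2.25 ± 0.30 and 1.86 ± 0.29 SE, adjusted p = 1.78e-05 and 8.13e-05). The fall from D3 to D7 was -1.73 on the log2 scale (adjusted p = 0.000593), and lay between -2.58 and -1.21 with 1 library left out. 2D-cultured and *in vivo* TECs were not separated (0.39 ± 0.29, adjusted p = 0.305), except with no filter on low counts (adjusted p = 0.0350). At day 7 the comparison with other groups depended on the replicate. Without D7 replicate 1, *Dusp6* was lower in D7 organoids than in 2D (-0.73, adjusted p = 0.0217), and without D7 replicate 2 it was higher (0.65, adjusted p = 0.0268). With both, it was 0.13 ± 0.29 (adjusted p = 0.747). Against *in vivo* TECs the value was 0.52 (adjusted p = 0.183), which passed the threshold with no filter on low counts (0.00856) or without D7 replicate 2 (1.04, 0.00132). In D7 organoids, *Fgfr1*, *Fgfr2*, *Spry1*, *Spry2*, *Spry4* and *Dusp6* were all lower in replicate 2, which had 5084715 counts in total, than in replicate 1, which had 7612532, while *Fgf1*, *Fgfr3*, *Etv4* and *Etv5* were higher. An antisense gene annotated over the last exon of *Dusp6*, Gm34921, had no count in any library.

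Counted over the 8 genes other than *Fgf1* and *Fgfr3*, D3 organoids differed from 2D-cultured TECs in 6, all higher (*Fgfr2*, *Spry1*, *Spry2*, *Dusp6*, *Etv4* and *Etv5*), where 38.3% of all genes tested were called, 19.3% higher and 19.1% lower. The median log2 fold change of the 8 was 1.72, beside 0.03 over all genes. Against *in vivo* TECs, 6 genes were higher in D3 organoids and none lower (28.2% of all genes called, 14.1% higher and 14% lower), with a median of 2.15 beside -0.01. In D7 organoids, 5 were higher and *Fgfr2* was lower than *in vivo* (34.8% called, 18% higher and 16.8% lower), with a median of 1.29 beside 0.01. Against 2D, 4 were higher in D7 organoids and *Fgfr1* was lower (45.5% called, 24.4% higher and 21.1% lower), with a median of 1.02 beside 0.10. Because the genes were chosen with earlier results of these data known, the counts and medians here and in the next paragraph are a description.

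In 2D-cultured against *in vivo* TECs, *Fgfr1* and *Spry1* were higher and *Fgfr2*, *Spry2* and *Etv5* lower, with a median of -0.07 beside -0.06 (41.6% called, 19.9% higher and 21.7% lower). From D3 to D7, *Fgfr1*, *Fgfr2*, *Spry1*, *Spry2* and *Dusp6* were lower and none of the 8 was higher, with a median of -0.74 beside 0.06 (20.8% called, 10.9% higher and 9.91% lower). That count of 5 fell to 3 without D3 replicate 1, without D3 replicate 2 or without D7 replicate 2. Comparisons that share a group share its 2 libraries, so the values of a gene over *in vivo* TECs, for example, are not independent of one another.

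**Figure D3:**
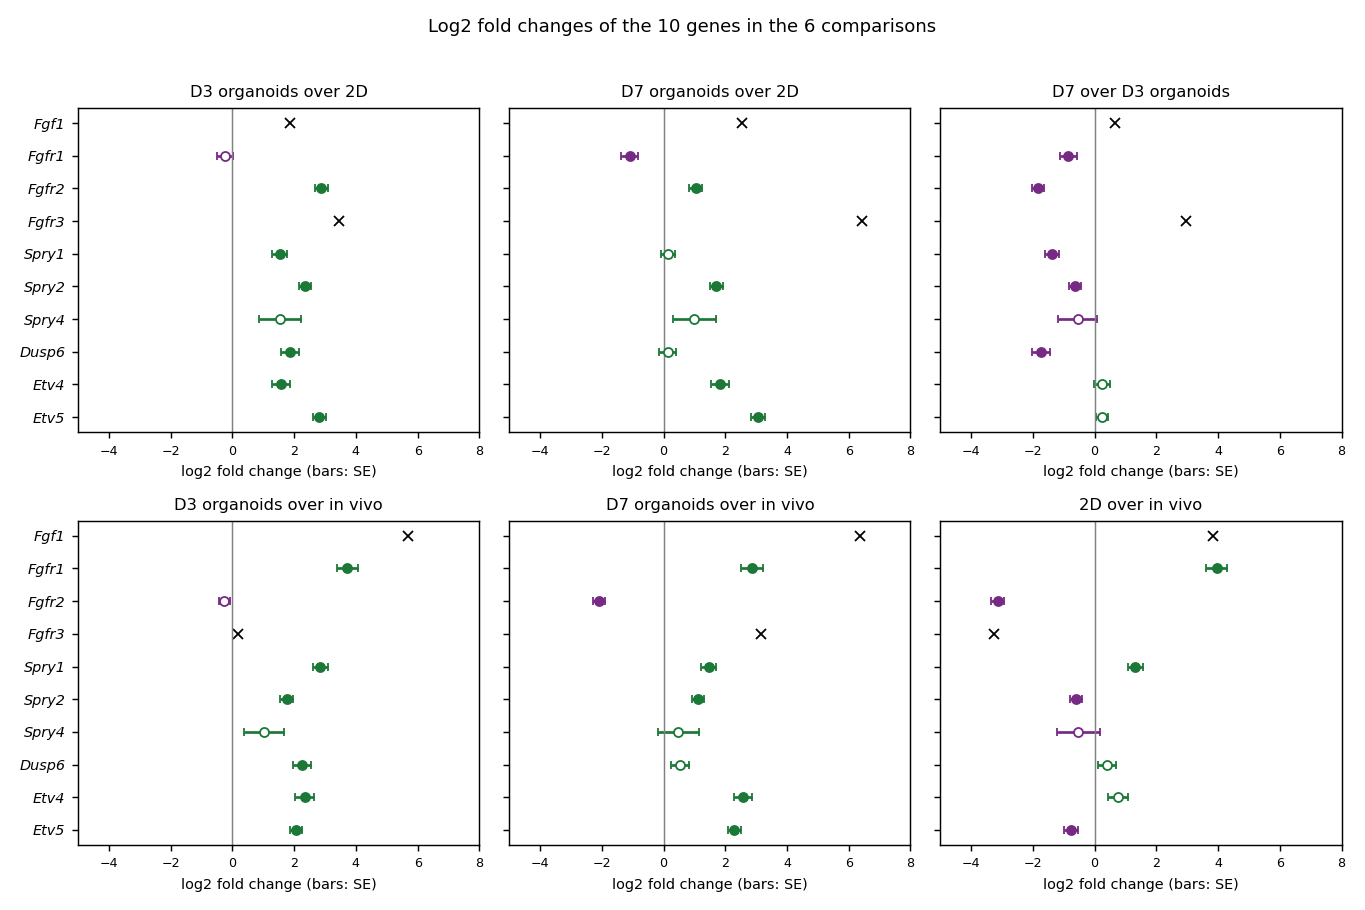
Log2 fold changes of the 10 genes on the x axis in each of the 6 comparisons, with bars of 1 SE. Filled points passed an adjusted p of 0.05, open points did not, green is higher and purple lower in the first-named group, and crosses mark *Fgf1* and *Fgfr3*, which are given without a test. All 6 filled points for D3 organoids over 2D lie to the right of 0, and all 5 for D7 over D3 organoids lie to the left.

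Other genes listed as inhibitors moved in both directions. Of 14 further genes on the list of feedback inhibitors, 12 were tested. The list was not limited to inhibitors of FGF signalling and held *Dusp1*, *Dusp10* and *Errfi1*. In D3 organoids against 2D, 3 were higher, 6 lower and 3 not called (19.3% of all genes higher, 19.1% lower). Against *in vivo* TECs, 5 were higher and 4 lower in D3 organoids (14.1% and 14% of all genes). The counts include *Dusp9*, highest in 2D, which would not have passed the filter without that group. Its part in them is a description and not a test. *Il17rd*, which encodes the receptor-associated inhibitor SEF, followed the D3 peak, at 14.2 and 8.84 CPM in *in vivo* TECs, 23.4 and 23.0 CPM in 2D-cultured TECs, 206 and 215 CPM in D3 organoids and 64.8 and 52.4 CPM in D7 organoids. Its log2 fold change in D3 organoids was 4.20 ± 0.23 over *in vivo* TECs and 3.18 ± 0.21 over 2D (SE, adjusted p = 3.79e-10 and 3.67e-09), and it fell by 1.84 from D3 to D7 (adjusted p = 8.45e-06). *Spred1*, a Sprouty-related inhibitor of RAS signalling, was at 67.1 and 69.8 CPM in 2D-cultured TECs and 170.1 and 142 CPM in D3 organoids (log2 fold change 1.19, adjusted p = 2.17e-05). *Errfi1*, an inhibitor of the EGF receptor, went the other way, from 72.2 and 78.9 CPM in 2D to 15.7 and 22.7 CPM in D3 organoids (-1.97, adjusted p = 3.42e-06). *Dusp5*, a nuclear ERK phosphatase named after its values were seen, stood at 32.4 and 23.3 CPM in *in vivo* TECs, 92.3 and 64.4 CPM in 2D-cultured TECs, 6.07 and 2.79 CPM in D3 organoids and 2.85 and 1.38 CPM in D7 organoids. It was 17.7 times lower in D3 organoids than in 2D (log2 fold change -4.17 ± 0.35 SE, adjusted p = 5.41e-08), opposite in direction to *Dusp6*.

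Genes often read as outputs of ERK signalling were likewise divided. Of 10 listed, 1 of which (*Dusp4*) is also among the inhibitors above, 2 were higher and 6 lower in D3 organoids than in 2D (19.3% and 19.1% of all genes), and 3 were higher and 3 lower than in *in vivo* TECs (14.1% and 14%). *Etv1* and *Phlda1*, which encodes a pleckstrin-homology protein induced by ERK, were the 2 that were higher. The counts include *Epha2*, highest in 2D, which would not have passed the filter without that group. Its part in them is a description and not a test. *Phlda1* rose from 424 and 341 CPM in 2D to 648 and 573 CPM in D3 organoids (0.67, adjusted p = 0.0103), a call lost without 2D replicate 2 or D3 replicate 1 (adjusted p = 0.122 and 0.0704). *Ccnd1*, which encodes cyclin D1, was 33.6 times higher in 2D-cultured than in *in vivo* TECs (adjusted p = 7.93e-12) and lower in D3 organoids than in 2D (-1.43, adjusted p = 4.40e-06), with 18.3 and 17.0 CPM in *in vivo* TECs, 648 and 540.4 CPM in 2D and 256 and 185 CPM in D3 organoids. *Ier3*, an immediate-early gene named after its values were seen, was at 261 and 253 CPM in 2D and 18.2 and 17.2 CPM in D3 organoids (-3.86, adjusted p = 7.83e-10). *Egr1*, an immediate-early transcription factor gene that tissue digestion can also induce, was at 677 and 645 CPM in *in vivo* TECs and at most 65.9 CPM in the cultures (log2 fold change -3.39 in 2D, adjusted p = 2.73e-09). *In vivo* TECs were lysed soon after digestion and sorting and the cultures days later, so digestion cannot be told apart from culture in this difference.

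**Figure D4:**
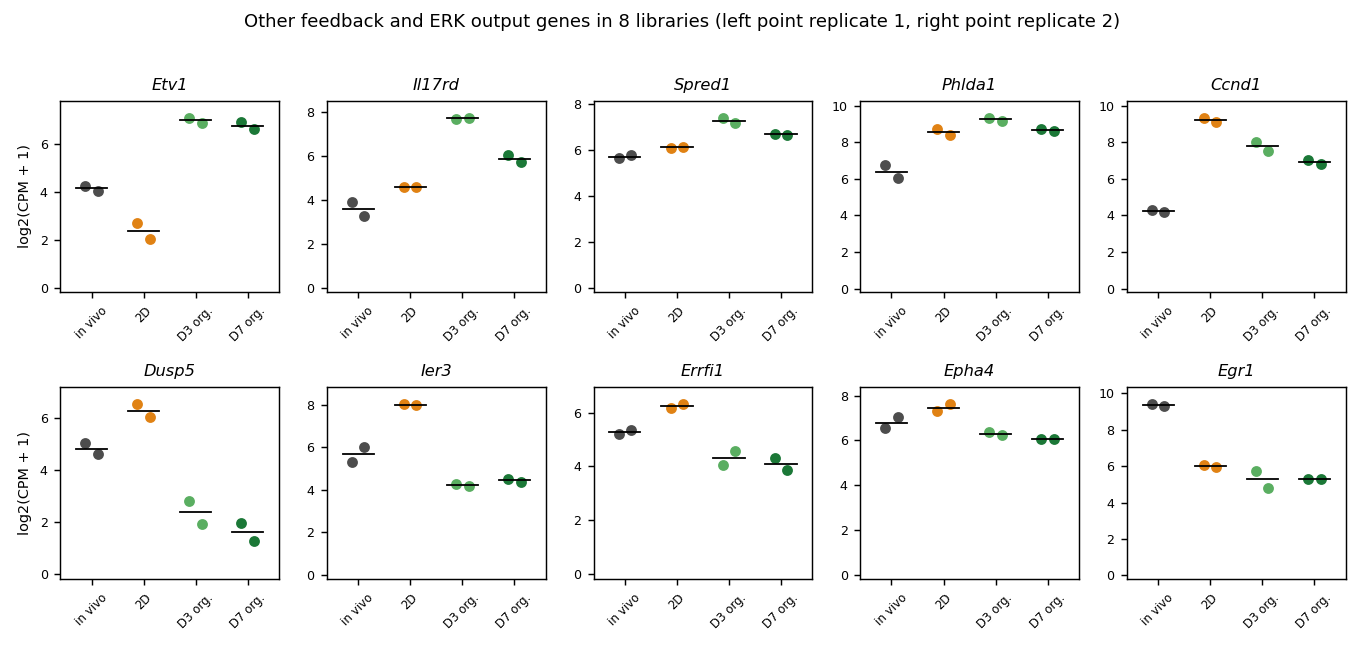
Levels of 10 other feedback and ERK output genes as log2(CPM + 1) on the y axis, with the 4 groups on the x axis, 2 points per group and a line at their mean. *Il17rd* and *Spred1* peak in D3 organoids, and *Etv1* is high in D3 and D7 organoids, whose libraries overlap. *Ccnd1*, *Dusp5*, *Ier3*, *Errfi1* and *Epha4* are highest in 2D-cultured TECs and *Egr1* in *in vivo* TECs.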

How the data were processed

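Libraries were prepared with the QuantSeq 3′ mRNA kit, which primes at the poly(A) tail and yields 1 fragment per transcript, and sequencing was done on a NextSeq 500 instrument. STAR was the authors' aligner, against the build GRCm39, and what they deposited is 1 file of raw counts per library with a row for each Ensembl gene, neither normalized nor filtered. The release of the annotation, the strand setting of the counting step and the handling of multiply mapped reads are not given in the sources used here. Of the 56923 identifiers, 56236 were matched to symbols in GENCODE M39 and 687 were not. Every column of counts was used.

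Counts were analysed in R 4.3.3 with edgeR 4.0.16. TMM factors, from 0.880 to 1.09, scaled the library sizes, and all CPM values include them. The filter required 1 CPM or more in 3 or more of the 8 libraries, and all 6 comparisons were made with the quasi-likelihood test in 1 fit of 4 group means, with Benjamini-Hochberg adjustment over 14504 genes and a threshold of 0.05. The authors used limma-voom, run here as an alternative (limma 3.58.1), as was DESeq2 1.42.0. The procedure was tested on simulated data. With 2 libraries against 2, an exact permutation test cannot go below p = 0.333, so no such test was used. The labels call the libraries biological replicates, and the study states 2 mice per condition. None was a copy of another, since replicate counts differed by 7.05 to 8.94 times the sampling variance.

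The members and gene lists were chosen with earlier results of these data known. Outside the 10 members, examples come from the genes of each list that passed the threshold of adjusted p in any comparison. Of these, at most 4 per list were taken by highest mean CPM, so the examples were picked in part by their test results. *Fgf7*, *Fgf10*, *Fgfr4* and *Fgfrl1* were named in any case, and *Foxn1* and *Psmb11* are given outside this rule. The text says where another gene was added after its values were seen. A few genes that this rule covers are not reported here. Promoter windows were read from the GRCm39 sequence in Python 3.11.15 with pandas 2.3.3, and figures were drawn with matplotlib 3.10.9.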

Additional observations from a re-analysis of the deposited data

How the results depend on the processing

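Under the alternatives that kept all 8 libraries or those compared (DESeq2's size factors or test, scaling by library size alone, limma-voom, other filters, a limit of 1 on the log2 fold change, the 4 libraries compared, a replicate block), 457 of the values of the 9 genes fitted other than *Fgf1* kept their direction and side of the threshold, 11 lost the call, 5 gained it and 1 reversed. These counts, and those with 1 library left out below, include *Fgfr3*. It passed the filter only through D7 organoids, so its calls are not read as tests. Several of the lost calls were of *Fgfr3*, in 2D against *in vivo* TECs and in D3 organoids against 2D. They were lost with DESeq2's test, limma-voom and the fit of the 4 libraries compared. The reversed value was *Fgfr1* in D3 organoids against 2D, at 0.016 when scaled by library size alone. That scaling moved the median of all genes by 0.26 in the same comparison, by 0.20 in D7 organoids against 2D and by -0.18 in 2D against *in vivo* TECs, and gave *Fgf1* log2 fold changes of 2.13 (D3) and 2.73 (D7) over 2D. The limit on the fold lowered the genes called to 2724 (D3 organoids against *in vivo* TECs), 3311 (D7 organoids against *in vivo* TECs) and 1688 between D7 and D3 organoids. With 1 library left out, the lone sample of a group is assumed to vary like the others, and 185 values were kept, 21 lost, 3 gained and 7 reversed. Values then ranged from -0.36 to 1.20 for *Fgfr3* in D3 organoids against *in vivo* TECs, from -0.37 to 0.51 for *Spry1* and from -0.73 to 0.65 for *Dusp6* in D7 organoids against 2D, and from -0.34 to 1.04 for *Dusp6* in D7 organoids against *in vivo* TECs. Single values that reversed were -0.36 (without *in vivo* replicate 1) and -0.26 (without D3 replicate 2) for *Fgfr3*, -0.08 (without 2D replicate 2) and -0.37 (without D7 replicate 1) for *Spry1*, -0.08 and -0.73 in the same order for *Dusp6* against 2D, and -0.34 for *Dusp6* against *in vivo* TECs. Genes called ranged from 1217 to 2285 between D7 and D3 organoids and from 3031 to 4798 between D7 organoids and *in vivo* TECs, and members called between D7 and D3 organoids, *Fgfr3* included, from 3 to 5. The cause of these shifts was not tested.

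Replicate numbers were shared across the groups, but the deviations of same-numbered libraries correlated at only 0.038 to 0.149, so the numbers were not taken to pair the samples. With the replicate block, 6366 genes were called in 2D against *in vivo* TECs (6033 without the block). In D3 and D7 organoids against *in vivo* TECs, 4476 and 5452 were called (4088 and 5042 without). Against 2D these were 5919 and 6911 (5562 and 6605 without), and between D7 and D3 organoids 3587 (3012 without). The block thus raised the count in every comparison, and the cause of this was not tested. *Etv4* then passed the threshold in 2D against *in vivo* TECs (0.80, adjusted p = 0.0291), and no other member changed its call.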

Other observations

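Of 17 other receptors and coreceptors on the list, 14 were tested. Against *in vivo* TECs, 9 were higher and 2 lower in 2D, 8 higher and 2 lower in D3 organoids, and 6 higher and 3 lower in D7 organoids, where 41.6%, 28.2% and 34.8% of all genes were called. *Flrt1*, *Flrt2* and *Flrt3* encode membrane proteins that can bind FGF receptors. *Flrt1* was at 116 and 179 CPM in *in vivo* TECs, 4.17 and 4.07 CPM in 2D-cultured TECs, 70.9 and 83.4 CPM in D3 organoids and 105 and 113 CPM in D7 organoids, lowest in 2D, as *Fgfr2* was. Its log2 fold change was -5.16 ± 0.27 in 2D over *in vivo* TECs and 4.22 ± 0.27 in D3 organoids over 2D (SE, edgeR with Benjamini-Hochberg adjustment, adjusted p = 1.04e-10 and 1.80e-09). *Flrt2*, in contrast, was at 9.52 and 12.1 CPM in *in vivo* TECs and 166 and 193 CPM in 2D-cultured TECs (log2 fold change 4.04, adjusted p = 1.84e-10) and at 120.5 and 148 CPM in D3 organoids. *Sdc4*, a heparan sulphate proteoglycan that binds FGFs, was higher in 2D and in D3 organoids than in *in vivo* TECs (log2 fold changes 1.93 and 1.31, adjusted p = 7.97e-08 and 1.37e-05).

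Of 22 kinases and adaptors listed between receptor and ERK, 21 were tested, and none was higher and 9 were lower in D3 organoids than in 2D, where 38.3% of all genes were called, 19.3% higher and 19.1% lower. Against *in vivo* TECs, 9 were higher and none lower in 2D, 5 higher and 3 lower in D3 organoids, and 4 higher and 7 lower in D7 organoids, beside 41.6%, 28.2% and 34.8% of all genes called. *Nras*, which encodes a RAS GTPase, had a log2 fold change of -0.79 in D3 organoids over 2D (edgeR, adjusted p = 0.000910).

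The genes whose levels followed *Fgf1* most closely over the 8 libraries, among 9009 genes with a mean of at least 10 CPM, included *Atp1b1*, a subunit of the sodium-potassium pump, with *Pla2g7*, *Ephb1* and *Ptgs1* (Pearson r of log2(CPM + 1) from 0.9895 to 0.9985). *Atp1b1* averaged 62.6 CPM in *in vivo* TECs, 467 CPM in 2D-cultured TECs, 1705 CPM in D3 organoids and 2425 CPM in D7 organoids. The genes closest to *Fgfr2* were *Dpf2*, *Col16a1*, *Cdc23*, *E2f7* and *Hadh* (r from 0.9747 to 0.9887). With 4 groups of 2 libraries these values mostly reflect the 4 group means, and they are a description.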
